A study of Arabidopsis thaliana with 8 samples.

Results

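Epidermal cells of a young Arabidopsis shoot become pavement cells, stomatal guard cells or trichomes (leaf hairs), and 36 loci that steer the stomatal and trichome choices or serve mature guard cells are described here. They were taken by locus identifier from a list of stomatal lineage regulators and signals, guard cell channels and kinases, phototropins and trichome patterning factors. Of the 36 loci, 29 were listed in the count table, each as 1 numbered isoform (a gene model), out of 17710 listed loci. Of the 29, 23 had counts above 0 and 6 were listed at 0 in both libraries. The other 7 loci were not listed and are not analysed here.

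The study labels describe 8 RNA-seq libraries from shoots of seedlings aged 7 days, 2 for each of 4 genotypes: Col, cae2-1, CA1-1 and the combination cae2-1 CA1-1. The seedlings stood on upright MS agar plates in cycles of 16 h light and 8 h dark, with no treatment named. Of the count columns, only the 2 whose names match the titles of the Col samples were used, so the values below belong to Col, the Columbia accession, by column name, and no genotype was compared with another. Whole shoots were sampled, so in these values fewer cells of a type and less RNA per cell cannot be told apart, and the labels do not say how many seedlings went into a library.

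In the stomatal lineage, the related transcription factors SPCH, MUTE and FAMA act in turn. SPCH starts the asymmetric divisions, MUTE ends them and FAMA promotes guard cell identity. Each works with SCRM or SCRM2, while secreted EPF peptides act through the receptor kinases ER, ERL1 and ERL2 and their partner TMM to hold the lineage back through a kinase cascade that starts with YDA. Trichome fate is set by a complex of the MYB factor GL1, the bHLH factors GL3 or EGL3 and the WD-repeat protein TTG1, which turns on GL2 and also small MYB inhibitors that move to neighbouring cells.

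The column totals were 2571129 (replicate 1) and 2408685 (replicate 2) counts. Each count column also carries a number in its name, of unstated meaning, and the listed counts came to 55.5% and 53.6% of it. Levels are given as CPM, counts relative to the library size scaled by the trimmed mean of M values, and comparisons between genes as CPM per kilobase of the longest spliced transcript of the locus. Because counts of 1 never occur in the table, a 0 there may hide 1 count, and its upper limit was put at 4.74 counts, equal to 1.90 CPM for replicate 1 and 1.91 CPM for replicate 2. Shoot identity was checked by markers: the 4 mesophyll marker genes had between 7165 and 10688 CPM, while the 6 root marker genes had mean levels of 0 to 12.8 CPM. Of the root markers, COBL9 and EXPA7 were at 0 in both libraries. CASP1 (21.3 CPM in replicate 1 and 4.43 in replicate 2), CASP2 (mean 7.63) and SHR (mean 7.44) reached a mean of 5 CPM. Whether some root tissue was present was not tested.

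As a group, the stomatal and trichome genes had levels near those of all listed models. Of the 29 listed loci, 16 (55.2%) reached a mean of 5 CPM and 3 reached 100 CPM, beside 59.7% and 11.1% of all 17921 listed models. At 0 in both libraries were 6 of 29 (20.7%), beside 19.2% of all models. The median of their mean levels was 8.04 CPM, and that of all models was 10.5 CPM. GL2, KAT1 and ER were the 3 at 100 CPM or more.

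**Figure D1:**
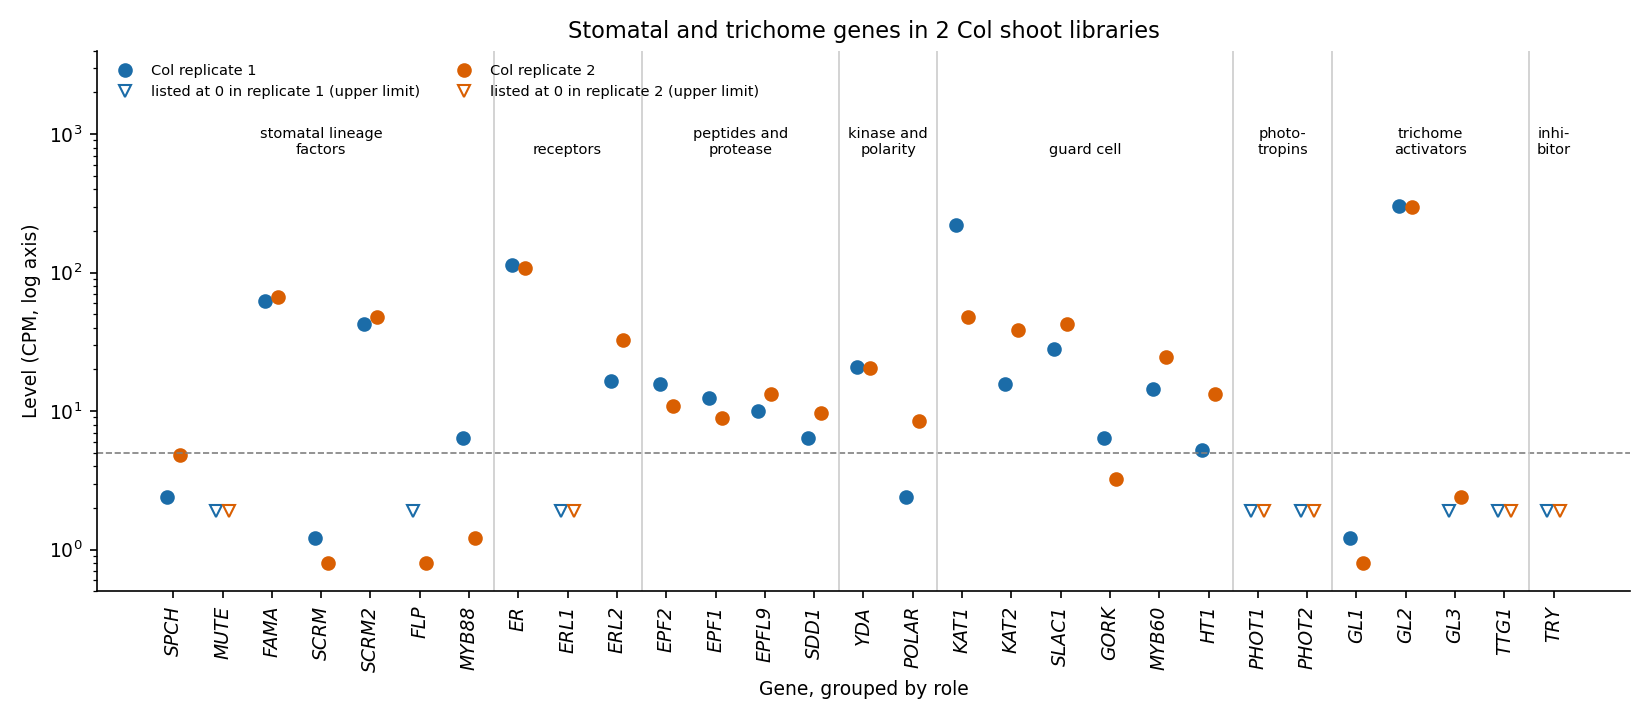
Level of each listed gene in CPM (log axis) in Col replicate 1 (blue) and replicate 2 (orange), grouped by role. Open triangles mark a listed 0, drawn at its upper limit of 1.90 or 1.91 CPM, and the dashed line is 5 CPM; GL2 stood highest at 299 CPM, and both phototropin models lay at 0.

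Of the 7 lineage transcription factor genes, all were listed, and the late factor FAMA was the most abundant. FAMA (AT3G24140) had 156 counts in replicate 1 and 167 in replicate 2. These are 62.6 and 67.2 CPM, with a mean of 64.9 ± 3.24 CPM (SD, n = 2). The early factor SPCH (AT5G53210) had 6 and 12 counts, or 3.62 ± 1.71 CPM. MUTE (AT3G06120), which acts between them, was listed at 0 in both libraries. FAMA thus had many counts in both libraries and MUTE none, while the exact Poisson intervals of the SPCH counts, 2.20 to 13.1 and 6.20 to 21.0 counts, overlapped.

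Within each library, FAMA stood above both earlier factors per kilobase. The ratio of FAMA to SPCH was 20.3 in replicate 1 (exact 95% interval 9.12 to 56.2) and 10.9 in replicate 2 (6.06 to 21.5). With MUTE set in each library at its limit of 4.74 counts, FAMA was 13.5-fold higher in replicate 1 and 14.4-fold higher in replicate 2. The counting error of FAMA itself is left out of these ratios to MUTE. The intervals of the SPCH ratio and the limit of MUTE cover counting error only.

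The partner genes SCRM and SCRM2 differed widely from each other. SCRM2 (AT1G12860) had 106 and 118 counts, or 45.0 ± 3.49 CPM, whereas the listed model of SCRM (AT3G26744, also ICE1) had 3 and 2 counts, or 1.00 ± 0.282 CPM. Per kilobase, SCRM2 was 36.2-fold higher in replicate 1 (12.1 to 178) and 60.4-fold higher in replicate 2 (16.4 to 505). The annotation holds 5 models for SCRM, of which isoform 1 was listed, and how reads were divided among models is not given.

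FLP and MYB88, related MYB factors that stop guard mother cells from dividing again, were both low. FLP (AT1G14350) was listed at 0 in replicate 1 and had 2 counts in replicate 2. MYB88 (AT2G02820) had 16 and 3 counts (6.42 and 1.21 CPM). Its mean of 3.81 ± 3.69 CPM lay below the level of 5 CPM at which models were tested.

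Among the receptor genes, ER was high, ERL2 intermediate and ERL1 at 0, and TMM (AT1G80080), the receptor-like protein that pairs with them, was not listed. ER (AT2G26330) had 285 and 269 counts, or 111 ± 4.35 CPM. ERL2 (AT5G07180) had 41 and 81 counts (16.5 and 32.6 CPM), more in replicate 2. ERL1 (AT5G62230) was listed at 0 in both libraries.

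Per kilobase, ER was at least 52.9-fold higher than the listed ERL1 model in replicate 1 and at least 49.9-fold higher in replicate 2. The ratio of ER to ERL2, a pair added after the values were seen, was 6.29 in replicate 1 (4.52 to 8.96) and 3.01 in replicate 2 (2.34 to 3.90). Their order was the same in both libraries, but the intervals of the ratio did not overlap.

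All 4 genes of secreted signals were listed, and each lay between 8.04 and 13.3 CPM. EPF2 (AT1G34245), which restrains entry into the lineage, had 39 and 27 counts, or 13.3 ± 3.39 CPM. EPF1 (AT2G20875), which spaces stomata apart, had 31 and 22 counts, or 10.6 ± 2.54 CPM. EPFL9 (AT4G12970, STOMAGEN), the relative that promotes stomata and competes with the inhibitory peptides, had 25 and 33 counts, or 11.7 ± 2.29 CPM.

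The 3 peptide genes were close per kilobase, with EPF2 at 16.0 ± 4.09, EPF1 at 12.3 ± 2.93 and EPFL9 at 11.8 ± 2.33 CPM per kilobase. EPF2 was 1.32-fold higher than EPF1 in replicate 1 (0.800 to 2.18) and 1.28-fold in replicate 2 (0.704 to 2.36), and both intervals include equal levels. EPFL9 was 0.709 times EPF1 in replicate 1 (0.401 to 1.24) and 1.32 times in replicate 2 (0.746 to 2.37), a pair also added after the values were seen. SDD1 (AT1G04110), a subtilisin-like protease that lowers stomatal density, had 16 and 24 counts, or 8.04 ± 2.29 CPM.

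Downstream of the receptors, YDA (AT1G63700), the kinase at the head of the cascade, had 52 and 51 counts, or 20.7 ± 0.247 CPM. The polarity gene POLAR (AT4G31805), whose protein marks a side of the asymmetrically dividing cell, had 6 and 21 counts (2.41 and 8.45 CPM). Its partner in polarity, BASL (AT5G60880), was not listed. YDA therefore had nearly equal counts in the 2 libraries, and POLAR did not. The ratio of YDA to SDD1 per kilobase was 2.17 in replicate 1 (1.22 to 4.07) and 1.42 in replicate 2 (0.857 to 2.41).

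Among genes of mature guard cells, KAT1, an inward potassium channel gene whose product takes up potassium during stomatal opening, was highest per kilobase in replicate 1 at 73.3 CPM. In replicate 2 it stood at 15.8 CPM per kilobase, below SLAC1 at 22.5 and MYB60 at 18.6. KAT1 (AT5G46240) had 552 counts in replicate 1 but 119 in replicate 2. These are 222 and 47.9 CPM, with a mean of 135 ± 123 CPM. KAT2 (AT4G18290), a related inward channel, had 39 and 96 counts, or 15.7 and 38.6 CPM. So KAT1 was the higher gene in replicate 1, and in replicate 2 the related genes were close.

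The ratio of KAT1 to KAT2 per kilobase was 13.6 in replicate 1 (9.79 to 19.3) and 1.19 in replicate 2 (0.900 to 1.57). Both genes encode similar proteins, and how the authors counted reads that match several genes is not given. The outward potassium channel gene GORK (AT5G37500), active in stomatal closure, had 16 and 8 counts, or 4.82 ± 2.26 CPM. KAT1 exceeded GORK 38.7-fold in replicate 1 (23.6 to 68.3) and 16.7-fold in replicate 2 (8.21 to 39.6).

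SLAC1 (AT1G12480), the anion channel that opens when stomata close, had 70 and 105 counts, or 35.2 ± 10.0 CPM. MYB60 (AT1G08810), a guard cell transcription factor tied to stomatal opening, had 36 and 61 counts, or 19.5 ± 7.14 CPM. HT1 (AT1G62400), a kinase of the stomatal response to carbon dioxide, had 13 and 33 counts, or 9.25 ± 5.70 CPM. All 3 had more counts in replicate 2. OST1 (AT4G33950), the abscisic acid kinase that activates SLAC1, was not listed. SLAC1 was 2.76-fold higher than KAT2 per kilobase in replicate 1 (1.84 to 4.20) and 1.68-fold in replicate 2 (1.26 to 2.24), a pair added after the values were seen.

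PHOT1 (AT3G45780) and PHOT2 (AT5G58140), the blue light receptors that trigger stomatal opening and phototropism, were listed at 0 in both libraries. The listed models were isoform 2 of PHOT1 and isoform 4 of PHOT2. Their annotations hold 2 and 7 models.

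In the trichome set, the listed model of GL2 was high, and those of GL1, GL3 and TTG1, which act before it, were near 0. GL2 (AT1G79840), a homeodomain factor of trichome growth that also acts in the root epidermis, had 749 and 737 counts, or 299 ± 2.88 CPM. It ranked above 97.1% of listed models by CPM and above 92.9% by CPM per kilobase. The listed model is isoform 2 of 6, and GL2 overlaps AT1G09927 (same strand) and AT1G79850 (opposite strand). Its counts may therefore include reads of these neighbours. GL1 (AT3G27920), the MYB factor that starts trichomes, had 3 and 2 counts, or 1.00 ± 0.282 CPM. GL3 (AT5G41315), its bHLH partner, was listed at 0 in replicate 1 and had 6 counts in replicate 2. TTG1 (AT5G24520), the WD-repeat protein of the complex, was listed at 0 in both libraries as isoform 3.

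GL2 exceeded GL1 81.3-fold per kilobase in replicate 1 (27.7 to 395) and 120.0-fold in replicate 2 (33.1 to 993). EGL3 (AT1G63650), the bHLH factor that overlaps with GL3 in function, was not listed. Of the 4 small MYB inhibitor genes only TRY (AT5G53200) was listed, at 0 in both libraries. CPC (AT2G46410), ETC1 (AT1G01380) and ETC3 (AT4G01060) were not listed.

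Ordered by mean CPM per kilobase, GL2 came first at 103 ± 0.995, KAT1 next at 44.6 ± 40.6, then FAMA at 28.2 ± 1.41, ER at 27.9 ± 1.09 and SCRM2 at 20.6 ± 1.60. SLAC1, EPF2, MYB60, EPF1 and EPFL9 followed between 18.7 and 11.8. KAT2, ERL2, YDA, HT1, POLAR and SDD1 lay between 9.38 and 3.20, and SPCH stood at 2.01. Of the 22 pairs of neighbours in this order among the 23 genes above 0, 3 had ranges over the 2 libraries that did not overlap. These were GL2 over KAT1, ER over SCRM2 and GL1 over SCRM. GL1 and SCRM had the same counts, 3 and 2, so transcript length alone set that pair apart, and 2 of the 22 pairs were separated by levels above the limit of a listed 0.

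**Figure D2:**
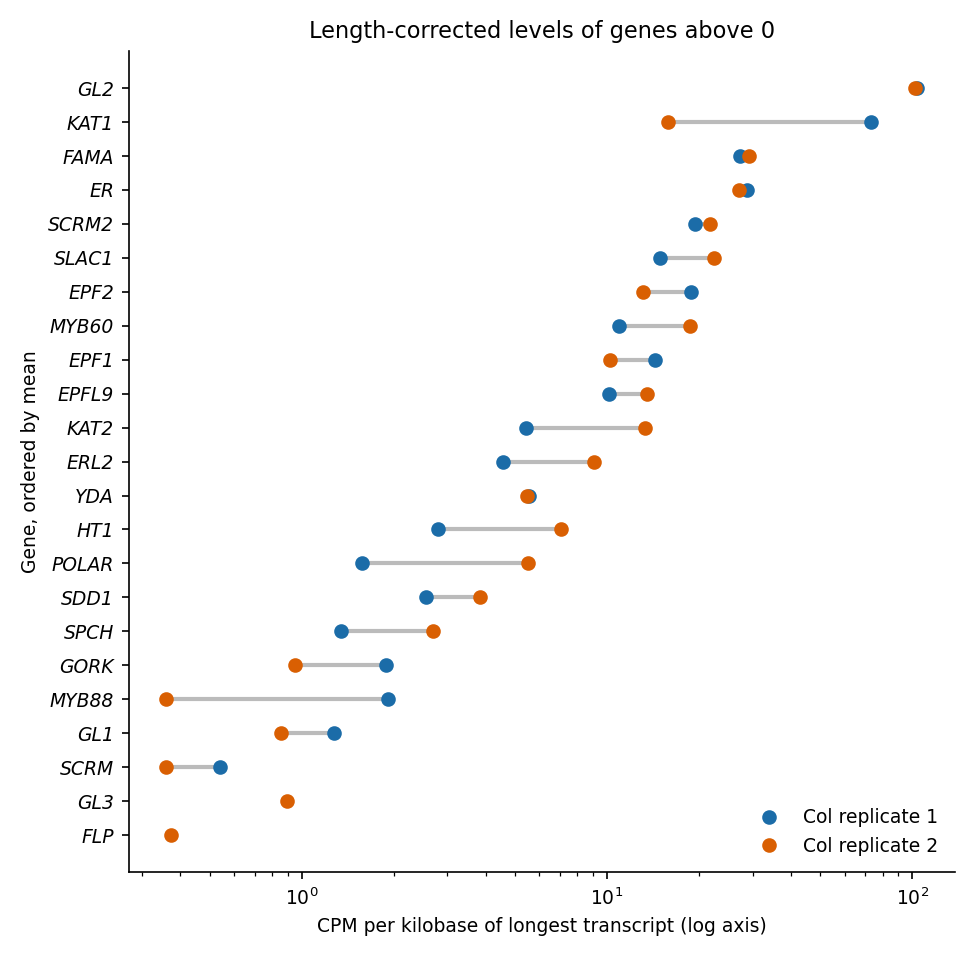
CPM per kilobase (log axis) of the 23 genes above 0, ordered by mean, with Col replicate 1 in blue, replicate 2 in orange and a bar joining the values of a gene. GL3 and FLP have no point for replicate 1, where they were listed at 0; the bar of KAT1 spans 15.8 to 73.3 and crosses those of FAMA, ER and SCRM2.

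Whether a gene differed between the 2 Col libraries beyond counting noise was asked with an exact binomial test (two-sided) over the 10701 models whose mean reached 5 CPM. The test compares these libraries and not conditions. After Benjamini-Hochberg adjustment over all models it called 55.3% of them, 27.6% higher in replicate 1 and 27.7% higher in replicate 2. Of the 29 listed genes, 16 passed the filter on level, and 7 of those 16 were called, KAT1 higher in replicate 1 and the other 6 higher in replicate 2. The called share of 43.8% did not exceed this background, so the count says nothing particular of these genes. Their median log2 ratio of replicate 1 over replicate 2 was −0.27, beside 0.00 over all tested models. The median absolute log2 ratio was 0.53 for these genes and 0.58 over all tested models.

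All 5 tested guard cell genes were called, beside 55.3% of all tested models. KAT1 was higher in replicate 1, with a log2 ratio of 2.20 (adjusted p = 1.1e-65, exact binomial test). The other 4 were higher in replicate 2: KAT2 had a log2 ratio of −1.28 (adjusted p = 2.9e-06, exact binomial test), HT1 of −1.27 (0.0069), MYB60 of −0.74 (0.022) and SLAC1 of −0.58 (0.017). The absolute log2 ratio of KAT1 exceeded that of 97.7% of the tested models, and that of SLAC1 exceeded 49.7%. Summed over the 6 listed guard cell genes, the levels were 291 CPM (replicate 1) and 169.8 CPM (replicate 2). Without KAT1 they were 69.8 and 122 CPM, so which library had the higher sum depended on KAT1.

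Markers of other shoot cell types differed between the same libraries, where 55.3% of all tested models were called. All 4 mesophyll markers, at 12176 to 35014 counts each, were called higher in replicate 1 and summed to 42601 and 22852 CPM. At such counts the exact binomial test calls even small ratios. The log2 ratios of these markers ran from 0.71 (PSBO1) to 1.09 (LHCA2), beside a median absolute log2 ratio of 0.58 over all tested models. All 3 listed vascular markers were called higher in replicate 2 and summed to 172 and 384 CPM, and of the 4 listed epidermal markers 2 were higher in each, with sums of 3463 and 2784 CPM. The 6 root markers summed to 35.7 and 22.9 CPM, and 2 of their 3 tested genes were called: CASP1 (53 and 11 counts) with a log2 ratio of 2.14 (adjusted p = 4.8e-07, exact binomial test) and SHR (11 and 26 counts) with one of −1.16 (adjusted p = 0.027, exact binomial test). A shift in cell types between the libraries was not tested, nor was the part of these marker differences in the guard cell differences.

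Of the 10 tested genes of the stomatal lineage, 2 were called, both higher in replicate 2, beside 55.3% of all tested models called. ERL2 had a log2 ratio of −0.96 (adjusted p = 0.00076, exact binomial test) and POLAR of −1.62 (0.0082). FAMA, SCRM2, ER and YDA did not pass the test, with log2 ratios of −0.10, −0.16, 0.08 and 0.02 and adjusted p of 0.64, 0.52, 0.62 and 1. EPF2, EPF1, EPFL9 and SDD1 did not pass it either, at adjusted p from 0.25 to 0.39. They had only 16 to 39 counts per library, and their log2 ratios ran from −0.55 to 0.51. The median absolute log2 ratio over all tested models was 0.58. At such counts the test can miss a ratio that it calls at higher counts. SDD1 at −0.55 (16 and 24 counts) was not called, whereas SLAC1 at −0.58 (70 and 105 counts) was. The share of lineage genes called therefore depends on their counts. The tested trichome gene, GL2, had a log2 ratio of 0.02 and an adjusted p of 0.86 in the same exact test. Whether guard cell and lineage genes differ in how often they were called was not tested.

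**Figure D3:**
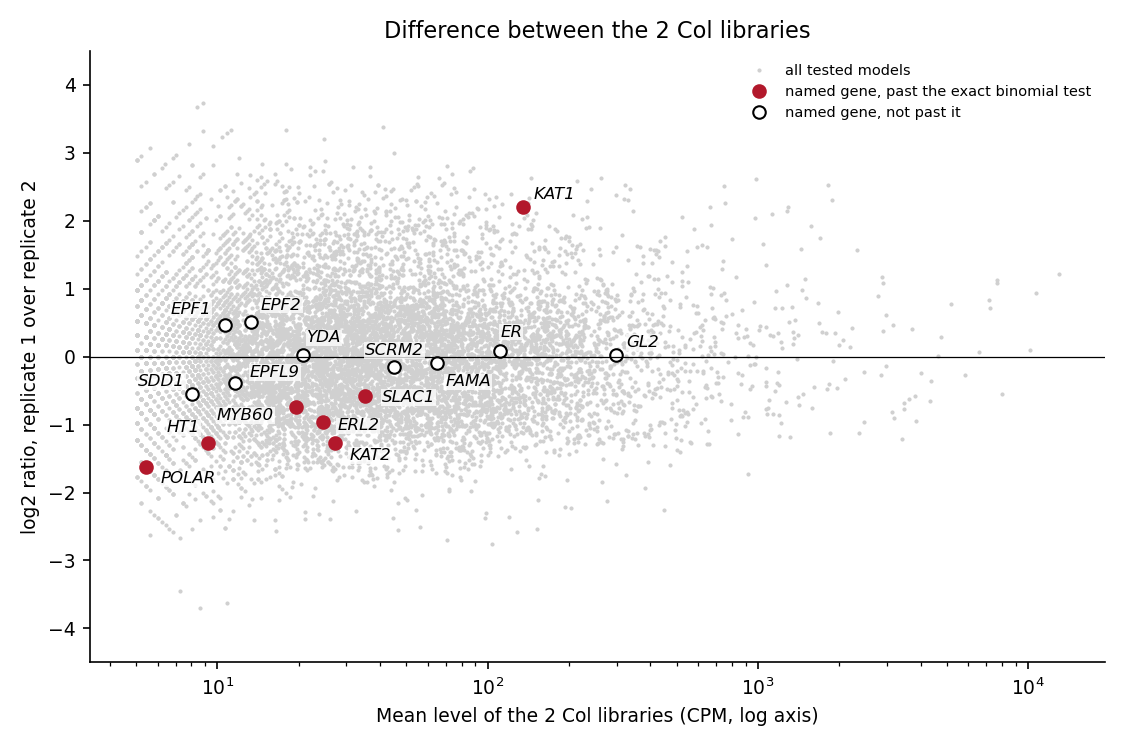
Log2 ratio of Col replicate 1 over replicate 2 against the mean level in CPM (log axis), for all 10701 tested models (grey) and the 16 tested stomatal and trichome genes. Filled red points passed the exact binomial test and open points did not; KAT1 lies at 2.20, and FAMA, YDA, GL2 and ER lie between −0.10 and 0.08.

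Ratios between related genes do not depend on library scaling and were compared between the libraries by their intervals, with no test. Of 19 pairs, fixed with earlier results of these data known, 12 had both genes listed, and 7 gave an interval in both libraries. In 6 of the 7 the intervals of the 2 libraries overlapped. KAT1 and KAT2 were the fixed pair whose intervals lay apart. Of the 3 pairs added after the values were seen, ER and ERL2 also had intervals apart. The overlaps with SPCH (6 and 12 counts), SCRM and GL1 (each 3 and 2) rest on wide intervals and say little.

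**Figure D4:**
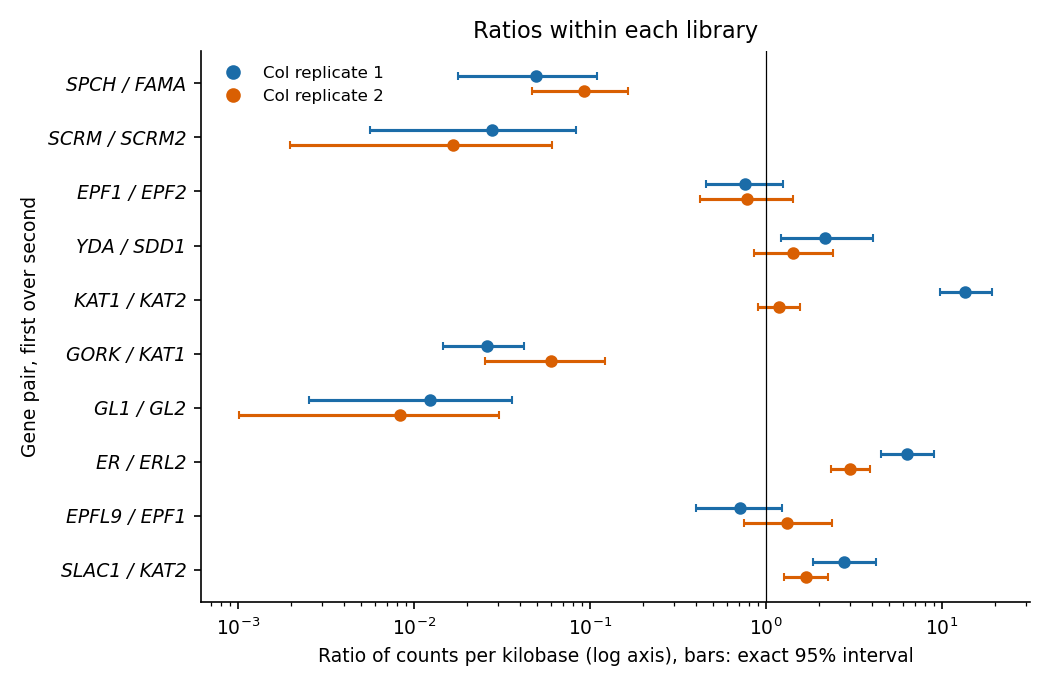
Ratio of counts per kilobase (log axis) of the first gene over the second within Col replicate 1 (blue) and replicate 2 (orange), with exact 95% intervals as bars, for the 7 fixed pairs and the 3 added after the values were seen. The KAT1 to KAT2 ratio was 13.6 in replicate 1 and 1.19 in replicate 2, and the bars of the other fixed pairs overlap. Those of ER and ERL2, an added pair, do not.

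The isoform number of the listed model went with its level. Among all models, 34.3% of the 855 with an isoform number above 1 were at 0 in both libraries, beside 18.4% of the 17066 with number 1, and their median levels were 1.00 and 11.7 CPM. Of the 29 listed genes, PHOT1, PHOT2, TTG1, FLP, MYB88 and GL2 had a number above 1. Of these 6, 3 were at 0 in both libraries and 1, GL2, reached 5 CPM. Of the 23 with number 1, 3 were at 0 in both (MUTE, ERL1 and TRY) and 15 reached 5 CPM. The part of the choice of model in the low values of PHOT1, PHOT2, TTG1 and FLP was not tested, and such a value need not be the level of the locus.

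Of the listed genes, 7 overlap a neighbouring gene in the annotation: FLP, ERL1, POLAR, SLAC1, PHOT2, GL2 and GL3. Whether the counting used strand is not given, so reads of these genes and their neighbours cannot be told apart. This holds for GL2, so its first rank need not be that of its own transcript.

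Further genes of the same pathways were taken from lists of 11 kinase cascade and co-receptor genes, 8 EPF-like peptide genes, 23 guard cell signalling and transport genes, 4 phototropin signalling genes and 25 other trichome genes. In the kinase cascade list all 9 listed genes reached 5 CPM, and 8 were called, 2 higher in replicate 1 and 6 in the other library, beside 55.3% of all tested models called. MPK3 and MPK6, the kinases at the end of the cascade, stood at 133 and 54.8 CPM per kilobase, and the co-receptor gene BKK1 (SERK4) at 90.0. The cascade kinase gene MKK9 had 30 and 89 counts, with a log2 ratio of −1.53 (adjusted p = 1.9e-07, exact binomial test), and the co-receptor gene SERK2 had 306 and 195, with a log2 ratio of 0.64 (adjusted p = 3.5e-06, exact binomial test).

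Most EPF-like peptide genes were low. Of 6 listed, 2 reached 5 CPM, and the exact binomial test called 0 of them, with 0 at an unadjusted p under 0.05 as well. Of all tested models, 55.3% were called. EPFL5 had 33 and 20 counts, or 16.8 CPM per kilobase, AT5G10310 had 21 and 20 counts, and AT4G37810 had 15 and 2.

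In the guard cell signalling and transport list, 20 of 23 were listed, 16 reached 5 CPM and 11 were called, 4 higher in replicate 1 and 7 in replicate 2, beside the same 55.3%. The carbonic anhydrase gene CA1 (AT3G01500) was highest at 492 CPM per kilobase in these whole shoots. Its listed model is isoform 3 of 4, and CA1 overlaps AT3G01510 on the same strand, so its counts may include reads of that neighbour. Next came the abscisic acid receptor gene PYL4 at 262 and the proton pump gene AHA2 at 239.6 CPM per kilobase. AHA1, a related pump gene, had 1120 counts in replicate 1 and 363 in replicate 2, with a log2 ratio of 1.62 (adjusted p = 1.2e-87, exact binomial test). AHA2 differed the opposite way from AHA1, with a log2 ratio of −0.40 (adjusted p = 4.2e-18, exact binomial test). RBOHD, an NADPH oxidase gene of reactive oxygen signalling, had 82 and 270 counts, with a log2 ratio of −1.71 (adjusted p = 1.5e-23, exact binomial test).

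Of 4 phototropin signalling genes 3 were listed, and PKS1 was the highest with 50 and 53 counts. BLUS1, a kinase that phototropins phosphorylate in guard cells, had 2 and 4 counts. Of 25 other trichome genes 17 were listed, 10 reached 5 CPM and 6 were called, 2 higher in replicate 1 and 4 in the other library, again beside 55.3% of all tested models. The cell cycle inhibitor genes SMR1 and SIM, which act in endoreduplication, were highest at 75.7 and 55.8 CPM per kilobase. Next came GTL1, a repressor of trichome growth, at 33.3 CPM per kilobase, with 245 and 248 counts. SIM had 148 counts in replicate 1 and 72 in replicate 2 (log2 ratio 1.02, adjusted p = 1.5e-06, exact binomial test), and STI, a gene of trichome branching, had 29 and 78 (log2 ratio −1.39, adjusted p = 6.4e-06).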

How the data were processed

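RNA was extracted from Col shoots with a TRIzol-based method and sequenced on libraries of Illumina type, per the labels' protocols. The deposited values are raw read counts per gene model, named so per the file headers, made on build TAIR10, per the submitters' processing notes. Which aligner, counting tool, strand setting or filters were used is not given in the sources. The 6 count columns whose names match no sample title were not used.

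TMM factors of the 2 Col libraries over all listed models came from edgeR 4.0.16 under R 4.3.3. The exact binomial test (two-sided, scipy 1.17.1) set each model's counts against the scaled library sizes, with a mean of at least 5 CPM, Benjamini-Hochberg adjustment and a threshold of 0.05. Log2 ratios carry 0.5 CPM added to each library. Ratios within a library carry exact (Clopper-Pearson) 95% intervals. The reads carry no molecular identifiers, so they are not independent molecules and intervals and limits cover counting error only. The labels call the replicates biological but name no separate plates or days, so the spread may be technical. Lengths, model numbers and overlaps came from the RefSeq annotation of TAIR10.1, matched by locus for 17825 of 17921 models, and no coordinates of it are printed. On simulated counts of 10701 models with 200 changed 4-fold, the test called 96.0% of the changed and 0.0857% of the others. Between the real Col libraries it called 55.3%, so the simulated shares do not show how the test behaves on these data. The genes, lists and pairs were chosen with earlier results of these data known. In each pathway list, the 3 highest genes per kilobase and those with the largest replicate ratios at 20 CPM or more are named.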

Additional observations from a re-analysis of the deposited data

How the results depend on the processing

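The number of listed genes at a mean of 5 CPM or more was 16 with RLE factors, without scaling and without organelle models, and from 16 to 17 with either Col replicate left out. The number called between the Col replicates was 7 with RLE factors, without scaling and without organelle models. Of all tested models, 54.4%, 55.1% and 55.2% were then called. With a filter at 20 CPM it was 4, because 9 genes were then tested in place of 16, while 66.7% of all models were called. With a filter at 1 CPM, or none, it was 9, where MYB88 (adjusted p = 0.012 and 0.013) and GL3 (0.035 and 0.039) were added by the exact binomial test. Of all tested models, 46.2% and 41.6% were called under these filters. With library sizes taken from the numbers in the column names (added after seeing the data), levels fell to 53.8% and 55.3% of those reported. Then 14 genes reached 5 CPM and 6 were called, beside 59.9% of all tested models. POLAR, called with the reported library sizes, was then not tested. Over the settings in which each was tested, the adjusted p of KAT1 ranged from 7.2e-66 to 5.5e-60, that of MYB60 from 0.0095 to 0.029 and that of FAMA from 0.33 to 0.68. The called genes MYB60, HT1 and POLAR were not tested with the filter at 20 CPM. The 16 tested genes kept their call with RLE factors and without scaling, and called ratios kept their sign there and with 1 CPM added. Levels recomputed with RLE factors or without scaling stayed within their replicate SD. Of the 40 pair ratios recomputed with coding length, with the listed model's length (added after seeing the data) or without a replicate, 5 moved by more than the replicate SD. The KAT1 to KAT2 ratio, 4.75 as reported with an SD of 8.74, moved so without replicate 2 (13.6) but not without replicate 1 (1.19). The SD comes from the same 2 libraries, so a ratio that stays within it without a replicate is not shown to be stable. With coding length, the EPF1 to EPF2 ratio moved from 0.768 to 0.925 and the YDA to SDD1 ratio from 1.72 to 2.26. The EPFL9 to EPF1 ratio went from 0.963 to 1.12, within its SD but with the order reversed. No paired analysis was possible because only the Col columns could be matched to samples. Depth limits the genes under 5 CPM, where a count of 0 allows 1.90 CPM.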

Other observations

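Several genes of the wider trichome and guard cell lists also differed between the Col libraries, and they were chosen here after their values were seen. MYB23, a MYB factor close to GL1 in trichome function, had 6 counts in replicate 1 and 31 in replicate 2, with a log2 ratio of −2.16 (adjusted p = 8.1e-05, exact binomial test), while GL1 itself had 3 and 2. HDG12, a homeodomain gene related to GL2, had 25 and 7 counts, with a log2 ratio of 1.67 (adjusted p = 0.0050, exact binomial test), while GL2 had 749 and 737. The abscisic acid receptor gene PYR1 had 220 and 452 counts, with a log2 ratio of −1.04 (adjusted p = 2.0e-18, exact binomial test), and PYL4, another receptor gene of the family, had 1231 and 645 counts and a log2 ratio of 0.93 (adjusted p = 1.9e-40, exact binomial test).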
